A study of Mus musculus with 14 samples.

Results

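The 8 genes described here are the glucocorticoid-induced genes Fkbp5, Tsc22d3, Zbtb16 and Sgk1, the metallothioneins Mt1 and Mt2, and the stress-induced genes Cdkn1a and Lcn2. They were taken by symbol from a count table of 49315 genes. All 8 were among the 15292 genes with enough counts to be tested. Levels are given in CPM, the counts of a gene scaled to a common library total after TMM scaling, which corrects that total for the library's composition.

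The libraries were made from left ventricle of male mice that were wild type (WT) or carried a knock-in of the pacemaker channel gene Hcn4 (HCN4F), in which a tyrosine is exchanged for phenylalanine by targeted replacement in exon 4 and the channel opens more readily. As a knock-in, the exchange is carried by the gene itself in every tissue, and both the sinoatrial node and the ventricle of these mice hold it. Mice were 10 to 12 weeks old when they had a Sham operation or transverse aortic constriction (TAC), in which the aorta is tied against a 27-gauge needle so that the left ventricle pumps against a higher pressure, and tissue was taken 5 weeks later. There were 4 WT-Sham, 4 HCN4F-Sham, 4 HCN4F-TAC and 2 WT-TAC libraries, the latter numbered 2 and 3. Every animal of all 4 groups thus had an operation.

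Glucocorticoids are adrenal steroid hormones that enter cells and bind the glucocorticoid receptor, which then moves to the nucleus and switches genes on through short DNA elements. Cardiomyocytes express this receptor, and the heart is a known target of the hormone in stress and in the daily rhythm. Metallothioneins are small cysteine-rich proteins that bind zinc and copper, and their genes respond to metals through the factor MTF1 as well as to glucocorticoids.

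Mt1 and Mt2 lie next to each other, in the same orientation, on chromosome 8. On GRCm38, Mt2 spans chr8:94172664-94173568 and Mt1 spans chr8:94179082-94180327, so that 5514 bp separate them. Their coding sequences are shown because the ratio between the pair is described below and rests on telling their reads apart. Both are 186 bases long with the stop codon and differ at 38 bases, an identity of 79.6%, and the capitals mark the bases that differ.
Mt1 coding sequence: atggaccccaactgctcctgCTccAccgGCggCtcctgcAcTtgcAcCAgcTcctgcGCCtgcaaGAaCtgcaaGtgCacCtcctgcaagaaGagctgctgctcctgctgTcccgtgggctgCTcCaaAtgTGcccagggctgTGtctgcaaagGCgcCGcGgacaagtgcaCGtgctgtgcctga
Mt2 coding sequence: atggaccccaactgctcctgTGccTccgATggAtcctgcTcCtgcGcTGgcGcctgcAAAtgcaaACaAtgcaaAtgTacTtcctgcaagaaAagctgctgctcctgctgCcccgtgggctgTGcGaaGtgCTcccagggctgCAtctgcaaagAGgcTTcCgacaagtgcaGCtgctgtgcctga
The longest stretch that the full transcripts Mt1-201 and Mt2-201 share was 20 bases. An antisense gene, Gm45774, overlaps Mt2 on the opposite strand and was listed at 0.32 to 1.45 CPM, against 5.01 to 26.96 CPM for Mt2. Whether the counting used the strand is not given in the sources used here, so reads of this pair cannot be told apart.

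The promoter windows of both metallothioneins are shown because their levels moved together from library to library. The sequences are the RefSeq windows of GRCm38.p6 upstream of the gene, at chr8:94178839-94179081 for Mt1 and chr8:94172368-94172617 for Mt2, both on the plus strand. Capitals mark the core of the metal response element, the site of MTF1, searched as TGCACNC or TGCGCNC on either strand.
Mt1 promoter: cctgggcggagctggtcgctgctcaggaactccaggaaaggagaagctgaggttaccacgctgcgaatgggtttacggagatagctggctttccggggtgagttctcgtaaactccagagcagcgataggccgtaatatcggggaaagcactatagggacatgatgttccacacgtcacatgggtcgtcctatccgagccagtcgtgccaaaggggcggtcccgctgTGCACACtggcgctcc
Mt2 promoter: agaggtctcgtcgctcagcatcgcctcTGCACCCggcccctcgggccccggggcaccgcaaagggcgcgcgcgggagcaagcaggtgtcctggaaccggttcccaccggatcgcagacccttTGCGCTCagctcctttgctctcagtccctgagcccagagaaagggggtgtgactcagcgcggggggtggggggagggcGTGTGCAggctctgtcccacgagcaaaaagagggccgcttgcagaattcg
The Mt1 window held 1 core and the Mt2 window held 3. Of 32851 windows of all genes, each of 250 bases, 21.4% held at least 1 core and 1.26% held at least 3. The Mt1 window was cut where the transcript Mt1-201 begins, and the Mt2 window ends 47 bases before the start of Mt2-201. Further annotated transcripts begin up to 160 bases after the Mt1 window and up to 243 bases after the Mt2 window, and that stretch was not searched. Neither window held AGAACA, the hexamer that the glucocorticoid response element holds in each arm, on either strand, which 16.1% of all windows did. By symbol 7 of the 8 members had a window, all but Zbtb16. Among the others, 1 of 6 Sgk1 windows, chr10:21993640-21993889, held 3 such hexamers and a full element, in which the hexamer and its reverse complement are 3 bases apart. A full element was present in 3 windows of all genes, or 0.00913%. A match is a description of these letters and shows no binding.

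The libraries held 22309914 to 35210939 counts. The 8 ventricular and general cardiomyocyte markers together made up 63500 to 66200 CPM in WT-Sham, 58000 to 61300 in HCN4F-Sham, 58400 to 60100 in WT-TAC and 45400 to 54100 in HCN4F-TAC. None of these 8 markers was at 0 in any library. In bulk tissue, fewer cells of a type and less RNA per cell cannot be told apart. Hcn4 itself was at 3.49 to 13.5 CPM, and its level does not check the labels because the exchange alters a single codon. The comparison of TAC with Sham in WT shares its WT-TAC libraries with the genotype comparison in TAC and its WT-Sham libraries with the genotype comparison in Sham, so these comparisons are not independent of each other.

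Per kilobase of exon, counted over the union of all annotated exons of a gene, Mt1 had the highest level of the 8 genes, at 99.3 CPM per kb on average over 14 libraries. Zbtb16 followed at 26.2, Cdkn1a at 22.01, Mt2 at 19.9, Tsc22d3 at 18.4, Sgk1 at 13.4, Fkbp5 at 4.38 and Lcn2 at 0.655 CPM per kb. The 4 levels from Zbtb16 to Tsc22d3 differed by less than the SD of Zbtb16 or Cdkn1a over libraries. These levels rest on the lengths used, and per kilobase of the single transcripts Mt1-201 and Mt2-201 Mt1 was at 225.3 and Mt2 at 22.9 CPM per kb. Lcn2 was low but above 1 CPM in every library, while 3 counts corresponded to 0.0859 to 0.137 CPM. Mt1 stood above Mt2 in every library on the scale of CPM.

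**Figure D1:**
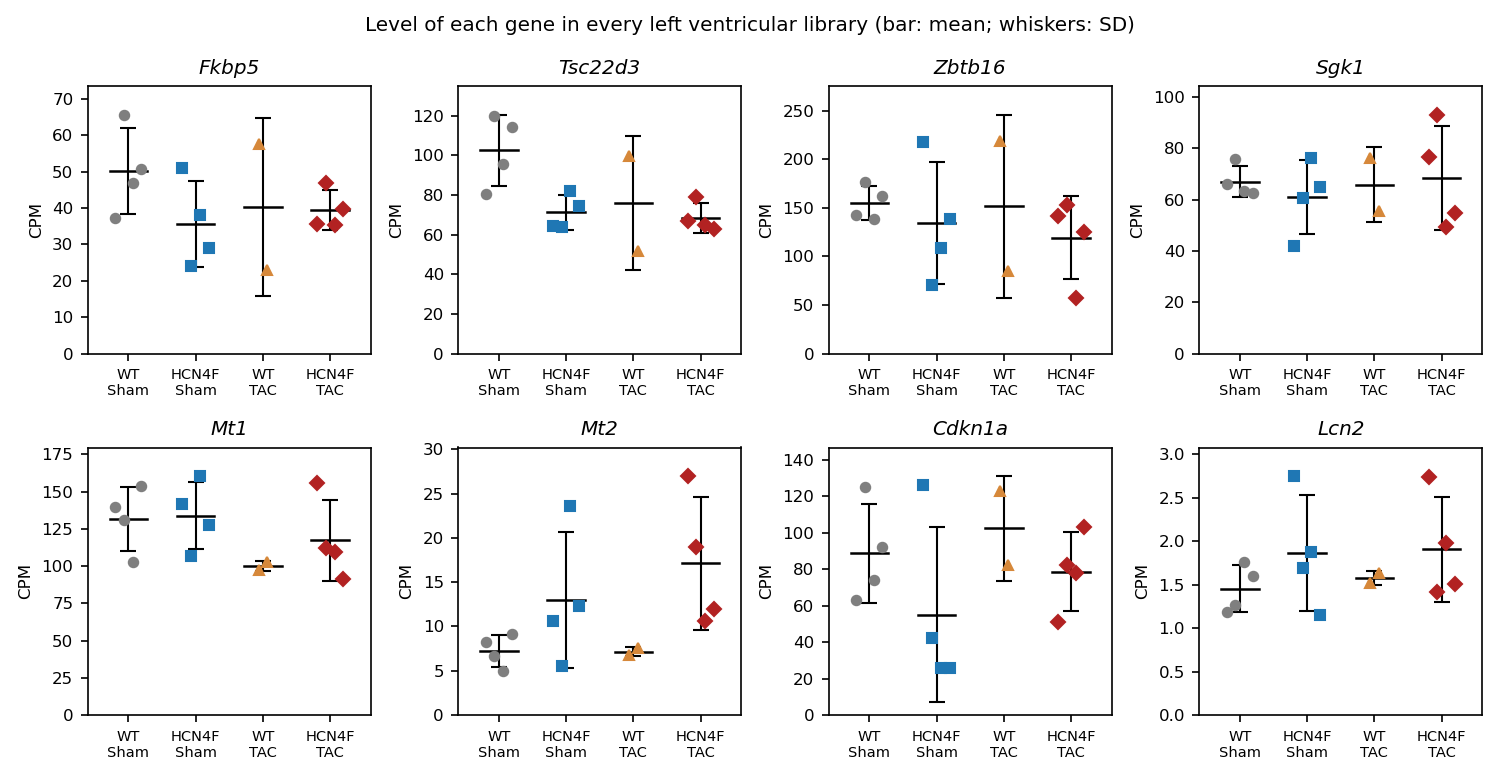
CPM (vertical axis, linear, from 0) of each of the 8 genes in every library, by group on the horizontal axis. Points are libraries, the horizontal bar is the group mean and whiskers are the SD, with 2 libraries in WT-TAC and 4 in the other groups. Of the 8 genes Mt2 has genotypes that do not overlap within TAC, as 22.2% of all tested genes do, with every HCN4F-TAC library at or above 10.6 CPM and both WT-TAC libraries at or below 7.53 CPM.

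These genes varied between animals of the same group more than most genes did. The biological coefficient of variation, the spread between libraries beyond counting error, was 46.4% for Cdkn1a, 39.5% for Mt2, 38% for Zbtb16 and 28.6% for Fkbp5. It was 22.2% for Lcn2, 20.5% for Sgk1, 17.4% for Tsc22d3 and 16.1% for Mt1, against a median of 11.5% over all tested genes. All 8 values lay above that median, with Cdkn1a, Mt2 and Zbtb16 at percentiles of 99.2, 98.4 and 98.1.

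A gene was called where the edgeR quasi-likelihood test, adjusted by Benjamini-Hochberg over all tested genes, gave an adjusted p below 0.05 with a log2 fold change above 1 or below -1. For TAC against Sham in WT, 0 of 8 members were called, with 0.706% of all tested genes called. For TAC against Sham in HCN4F, 0 of 8 were called, with 2.75% of all tested genes called. HCN4F against WT gave 0 of 8 in Sham, with a background of 0.209%, and 0 of 8 in TAC, with a background of 0.0719%. Over both genotypes, TAC against Sham gave 0 of 8 against a background of 2.07%, and over both surgeries HCN4F against WT gave 0 of 8 against 0.235%. The genotype by surgery interaction gave 0 of 8 members and 0% of all genes, while 1418 of 15292 genes had an unadjusted p below 0.05 and DESeq2 called 37. No member had an adjusted p below 0.05 in any of these 7 comparisons by edgeR. At an unadjusted p below 0.05 there were 0 members for TAC in WT, 0 for TAC in HCN4F, 1 for genotype in Sham, 1 for genotype in TAC, 1 for TAC over both genotypes, 2 for genotype over both surgeries and 0 for the interaction. Of all 15292 tested genes 3371 were at that p for TAC in WT, and the shares for the other 6 were 28.3, 15.2, 12.5, 34.7, 18.1 and 9.27% in the same order. DESeq2 called 1 member, Mt2, for genotype over both surgeries and 0 in each of the other 6 comparisons.

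Fkbp5 encodes a co-chaperone that binds the receptor complex, lowers its affinity for hormone and is itself induced by it. Its level was 37.1, 65.6, 46.7 and 50.8 CPM in WT-Sham replicates 1 to 4 and 51.0, 24.1, 38.1 and 29.1 CPM in HCN4F-Sham. After TAC it was 57.6 and 23.1 CPM in WT and 35.6, 47.0, 35.3 and 39.8 CPM in HCN4F. The 2 WT-TAC libraries lay on either side of all 4 HCN4F-TAC libraries, and all groups overlapped. HCN4F-Sham against WT-Sham was -0.49 on the log2 scale (SE 0.30, adjusted p = 0.459), and the other 3 single comparisons lay between -0.32 and 0.15. The direction after TAC in WT turned on which of the 2 WT-TAC libraries was kept, at 0.20 without replicate 3 and -1.12 without replicate 2, and the same held for Zbtb16, at 0.49 and -0.87.

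Tsc22d3 encodes GILZ, a leucine zipper protein that carries part of the anti-inflammatory action of glucocorticoids. It was at 80.6, 119.8, 95.5 and 114.3 CPM in WT-Sham and 64.5, 63.8, 81.9 and 74.7 CPM in HCN4F-Sham. It was at 99.7 and 51.8 CPM in WT-TAC and 66.7, 79.2, 64.8 and 62.7 CPM in HCN4F-TAC. Of the Sham libraries only the highest of HCN4F and the lowest of WT crossed. The genotype difference in Sham was -0.53 (SE 0.18, edgeR adjusted p = 0.185), a fold of 0.694 with a 95% confidence interval from 0.535 to 0.902. TAC against Sham in WT was -0.44 (SE 0.22, edgeR adjusted p = 0.257), and it turned on the WT-TAC pair, at -0.04 (adjusted p = 0.956) without replicate 3 and at -0.98 (adjusted p = 0.0279) without replicate 2, where it passed the adjusted p but not the fold minimum. The genotype difference in TAC was -0.15 (SE 0.21, adjusted p = 0.837), and the interaction, which tests whether the genotype difference depends on surgery, was 0.38 (SE 0.28, adjusted p = 0.703).

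Zbtb16 encodes PLZF, a zinc finger repressor that glucocorticoids induce strongly in many cells. Its values were 142.6, 176.6, 138.5 and 162.6 CPM in WT-Sham and 218.1, 70.8, 108.9 and 139.0 CPM in HCN4F-Sham. They were 218.3 and 84.9 CPM in WT-TAC and 141.9, 152.7, 57.0 and 125.5 CPM in HCN4F-TAC. The highest and the lowest library of HCN4F-Sham bracketed every WT-Sham library, and the log2 differences of the 4 single comparisons ran from -0.34 to -0.035 with adjusted p from 0.820 to 0.980. Zbtb16 lies on chromosome 9 at chr9:48654297-48836222, 9.99 Mb from Hcn4, and is the 187th of 877 tested genes of that chromosome by distance from it.

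Sgk1 encodes a kinase that both glucocorticoids and mineralocorticoids induce and that acts on ion channels and transporters. It was at 66.2, 75.8, 63.4 and 62.7 CPM in WT-Sham, 41.8, 60.8, 76.3 and 64.9 CPM in HCN4F-Sham, 76.2 and 55.6 CPM in WT-TAC, and 76.7, 93.2, 49.5 and 54.7 CPM in HCN4F-TAC. All groups overlapped. The widest log2 difference was 0.17 (SE 0.21, adjusted p = 0.641), for TAC in HCN4F, and its interval allowed a fold from 0.821 to 1.54.

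**Figure D2:**
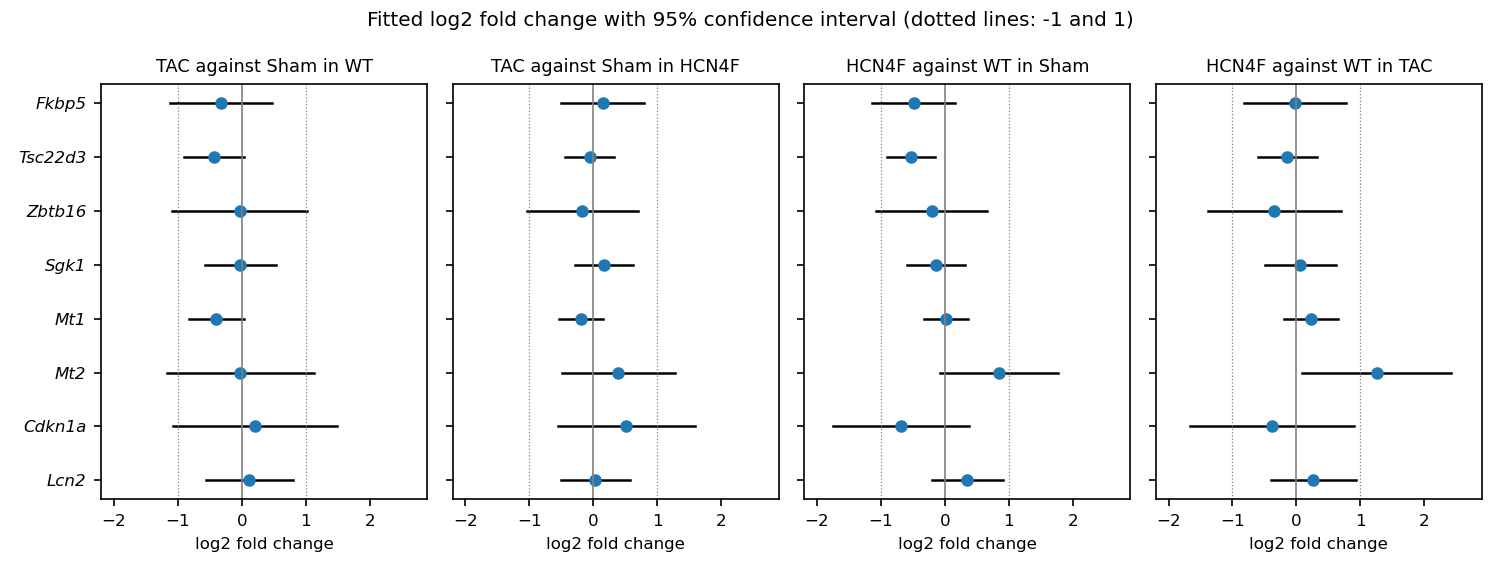
Fitted log2 fold change (horizontal axis) of each gene in the 4 single comparisons, as points with 95% confidence intervals as lines. The interval of Tsc22d3 for genotype in Sham, from -0.90 to -0.15, and that of Mt2 for genotype in TAC, from 0.09 to 2.42, are the only ones shown that do not reach 0, and neither passed the adjusted test.

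Mt1 was at 139.6, 130.9, 102.8 and 153.7 CPM in WT-Sham and 141.3, 106.6, 160.3 and 127.3 CPM in HCN4F-Sham. It was at 97.6 and 102.4 CPM in WT-TAC and 155.8, 112.2, 109.5 and 91.4 CPM in HCN4F-TAC. Both WT-TAC libraries lay below all 4 WT-Sham libraries and 39.2% of all tested genes had WT groups that did not overlap. The difference was -0.40 (SE 0.20, adjusted p = 0.262) in WT, -0.19 (SE 0.16, adjusted p = 0.466) in HCN4F and -0.30 (SE 0.13, adjusted p = 0.117) over both genotypes by edgeR. The genotypes differed by 0.02 in Sham (SE 0.16, adjusted p = 0.962), with an interval of the fold from 0.800 to 1.29.

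With all libraries kept, Mt2 had the largest genotype difference of the 8 genes, while without HCN4F-Sham replicate 1 Cdkn1a in Sham reached -1.51. Its level was 8.24, 6.67, 5.01 and 9.11 CPM in WT-Sham and 10.6, 5.48, 23.6 and 12.3 CPM in HCN4F-Sham. It was 6.78 and 7.53 CPM in WT-TAC and 26.96, 19.0, 10.6 and 11.96 CPM in HCN4F-TAC. In Sham the genotypes overlapped through HCN4F-Sham replicate 2 alone, and in TAC the lowest HCN4F library was still above the higher of the WT pair. The genotypes were apart in TAC, in either direction, for 22.2% of all tested genes. The 6 fibroblast markers also summed higher there, to 775 to 1270 CPM in HCN4F-TAC against 616 to 733 in WT-TAC, with 6 of 6 fitted differences above 0 and a median of 0.58 on the log2 scale. The 5 erythroid markers summed to 98.9 to 365 CPM in HCN4F-TAC against 88.2 to 100 in WT-TAC, with 5 of 5 above 0 and a median log2 difference of 1.00. The 8 ventricular and general cardiomyocyte markers had fitted differences below 0 in 8 of 8, with a median of -0.17 and sums that did not overlap, as given above. The macrophage markers were above 0 in 6 of 7, with a median of 0.37, and the atrial markers with enough counts in 4 of 4, with a median of 1.05. None of the markers of these 5 lists passed in this comparison, and their part in the level of Mt2 was not tested. HCN4F against WT was 0.84 in Sham (SE 0.42, adjusted p = 0.367), 1.25 in TAC (SE 0.53, adjusted p = 0.366) and 1.05 over both surgeries (SE 0.34, adjusted p = 0.139) by edgeR. The last is a fold of 2.07 with a 95% confidence interval from 1.24 to 3.46. DESeq2 gave 1.04 with an adjusted p of 0.0489, which passed the call rule, so the call depends on the tool. The interaction was 0.41 (SE 0.66, adjusted p = 0.892), and TAC against Sham was -0.02 in WT and 0.39 in HCN4F, with adjusted p of 0.988 and 0.572.

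The share of reads on Mt2 within the metallothionein pair was looked at after the values were seen and is given without a test. Of the reads on Mt1 and Mt2 together, Mt2 took 5.57, 4.85, 4.65 and 5.6% in WT-Sham and 6.96, 4.89, 12.9 and 8.79% in HCN4F-Sham. It took 6.49 and 6.85% in WT-TAC and 14.7, 14.5, 8.82 and 11.6% in HCN4F-TAC. The group means were 5.17% ± 0.489 (SD, n = 4), 8.38% ± 3.41 (n = 4), 6.67% ± 0.255 (n = 2) and 12.4% ± 2.78 (n = 4). All 4 HCN4F-TAC libraries lay above every WT library of either surgery, and 1 HCN4F-Sham library lay among WT-Sham. Both WT-TAC libraries lay above every WT-Sham library in this share, while their levels of Mt2 lay within the range of WT-Sham. For single genes, 22.2% of all tested genes did not overlap between genotypes in TAC and 39.2% between the WT groups. No such background was computed for shares of gene pairs, and this share uses the same Mt2 counts as above.

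**Figure D3:**
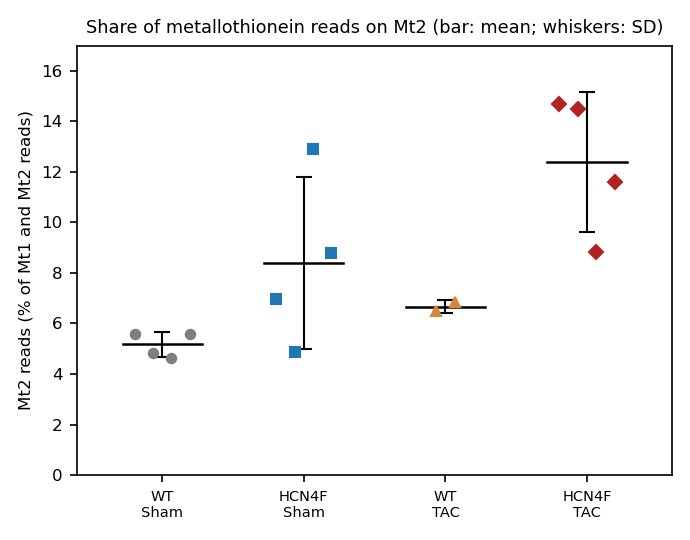
Reads on Mt2 as a percentage of the reads on Mt1 and Mt2 together (vertical axis, from 0) in every library, by group. Points are libraries, bars are means and whiskers are SD; HCN4F-TAC spans 8.82 to 14.7% and the 6 WT libraries span 4.65 to 6.85%.

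Cdkn1a encodes p21, an inhibitor of cyclin-dependent kinases that p53 and glucocorticoids both induce. It was at 63.2, 125, 73.8 and 92.2 CPM in WT-Sham and 126, 42.4, 26.0 and 25.7 CPM in HCN4F-Sham. It was at 123 and 82.2 CPM in WT-TAC and 51.1, 82.4, 78.1 and 103 CPM in HCN4F-TAC. HCN4F-Sham replicate 1 was as high as the highest WT library, and the other 3 libraries of its group lay below every other library of the study. With all libraries, HCN4F against WT in Sham was -0.69 (SE 0.49, adjusted p = 0.535) and TAC against Sham in HCN4F was 0.52 (SE 0.49, adjusted p = 0.527). Without HCN4F-Sham replicate 1 they were -1.51 (edgeR adjusted p = 0.0289) and 1.33 (edgeR adjusted p = 0.0180), both past the call rule. In that fit 92 of 15250 genes, or 0.603%, were called for genotype in Sham, against 32 with all libraries, and 438, or 2.87%, for TAC in HCN4F, against 420. That library is the one farthest from the others in the gene being compared, so both values rest on 3 libraries with the highest removed. It also stood below the other 3 of its group in the summed endothelial markers, at 667 against 949 to 1250 CPM, in the mural markers, at 593 against 879 to 952 CPM, in the erythroid markers, at 70.9 against 179 to 196 CPM, and in the share of counts on mitochondrial genes, at 17.1% against 20.2 to 21.4%. The part of these in the level of Cdkn1a was not tested.

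Lcn2 encodes lipocalin-2, an iron-siderophore binding protein of neutrophils, macrophages and stressed parenchymal cells. It was at 1.18, 1.27, 1.76 and 1.60 CPM in WT-Sham and 2.75, 1.69, 1.88 and 1.15 CPM in HCN4F-Sham. It was at 1.52 and 1.63 CPM in WT-TAC and 2.74, 1.42, 1.98 and 1.51 CPM in HCN4F-TAC. All groups overlapped, and the log2 differences ran from 0.03 to 0.35 with adjusted p from 0.548 to 0.950. The 9 neutrophil markers summed to 0.612 to 1.85 CPM in WT-Sham, 2.19 to 3.39 in HCN4F-Sham, 2.55 to 4.19 in WT-TAC and 1.95 to 6.0 in HCN4F-TAC, with 1 of 9 at 0 throughout each WT group. With TAC in WT, 2 of the 5 tested were called, S100a8 from a mean of 0.0883 to 0.634 CPM and S100a9 from 0.114 to 0.919 CPM (edgeR adjusted p of 0.0248 and 0.0409), both from about the level of 3 counts, and none passed in the other 3 comparisons. The part of neutrophils in the level of Lcn2 was not tested. The macrophage markers, 7 in all, summed to 140 to 225 CPM with none at 0 throughout a group.

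The genes around the hormone were read next. Genes of the lists used below passed where the edgeR adjusted p was below 0.05, with no minimum fold, which 4.54% of all tested genes did for TAC in WT, 13.6% for TAC in HCN4F, 0.471% for genotype in Sham and 0.111% for genotype in TAC. The genes named from here on for passing this looser test were chosen after their values were seen, except Arrdc2.

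Among 12 tested genes for receptors, enzymes that act on the hormone before the receptor, and receptor chaperones, 1 rose and 1 fell with TAC in WT, 2 fell in HCN4F, and 0 passed for genotype in either surgery. The gene that fell in both genotypes was Hsd11b1, whose product regenerates active glucocorticoid from its inactive form inside cells. It was at 16.45, 18.75, 16.25 and 18.2 CPM in WT-Sham and 11.2 and 13.0 CPM in WT-TAC. In HCN4F it was at 15.5, 19.8, 21.5 and 19.2 CPM after Sham and 9.12, 11.1, 11.97 and 12.7 CPM after TAC. No TAC library reached the lowest Sham library in either genotype, and 39.2% of all tested genes did not overlap between TAC and Sham in WT and 15.1% in HCN4F. The change was -0.52 (SE 0.14, edgeR adjusted p = 0.0443) in WT and -0.76 (SE 0.11, edgeR adjusted p = 0.000435) in HCN4F. With no fold minimum, the adjusted p was below 0.05 in 15 of 15 alternatives in HCN4F and in 7 of 13 in WT. Fibroblasts and adipocytes are known to express this enzyme. The 6 fibroblast markers summed to 616 to 813 CPM in the groups other than HCN4F-TAC and to 775 to 1270 CPM in HCN4F-TAC, and the 6 adipocyte markers summed to 0.145 to 0.444 CPM in WT-Sham, 0.0859 to 0.452 in WT-TAC, 0.274 to 0.904 in HCN4F-Sham and 0 to 0.247 in HCN4F-TAC. The last 2 groups did not overlap, and 2 of the 6 were at 0 throughout WT-Sham, WT-TAC and HCN4F-TAC. Cfd, the adipocyte marker with enough counts to be tested, fell with TAC in HCN4F from a mean of 0.355 to 0.0537 CPM (edgeR adjusted p = 0.0483), the latter under the level of 3 counts. The part of these cells in the level of Hsd11b1 was not tested.

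The receptors themselves did not pass. Nr3c1, the glucocorticoid receptor, was at 59.9 ± 4.76 CPM (SD, n = 4) in WT-Sham, 68.3 ± 9.84 (n = 4) in HCN4F-Sham, 74.8 ± 4.05 (n = 2) in WT-TAC and 74.7 ± 5.77 (n = 4) in HCN4F-TAC. Nr3c2, the mineralocorticoid receptor, was at 15.6 ± 3.19, 14.9 ± 2.44, 13.4 ± 4.19 and 9.95 ± 4.15 CPM in the same order. The TAC difference was 0.32 (SE 0.12, adjusted p = 0.117) for Nr3c1 in WT and -0.59 (SE 0.27, adjusted p = 0.170) for Nr3c2 in HCN4F. Ncoa2, a coactivator of the receptor, rose with TAC in WT by 0.60 (edgeR adjusted p = 0.0314), and Fkbp4, the co-chaperone that helps the receptor reach the nucleus, fell in HCN4F by 0.27 on the log2 scale (edgeR adjusted p = 0.0212).

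**Figure D4:**
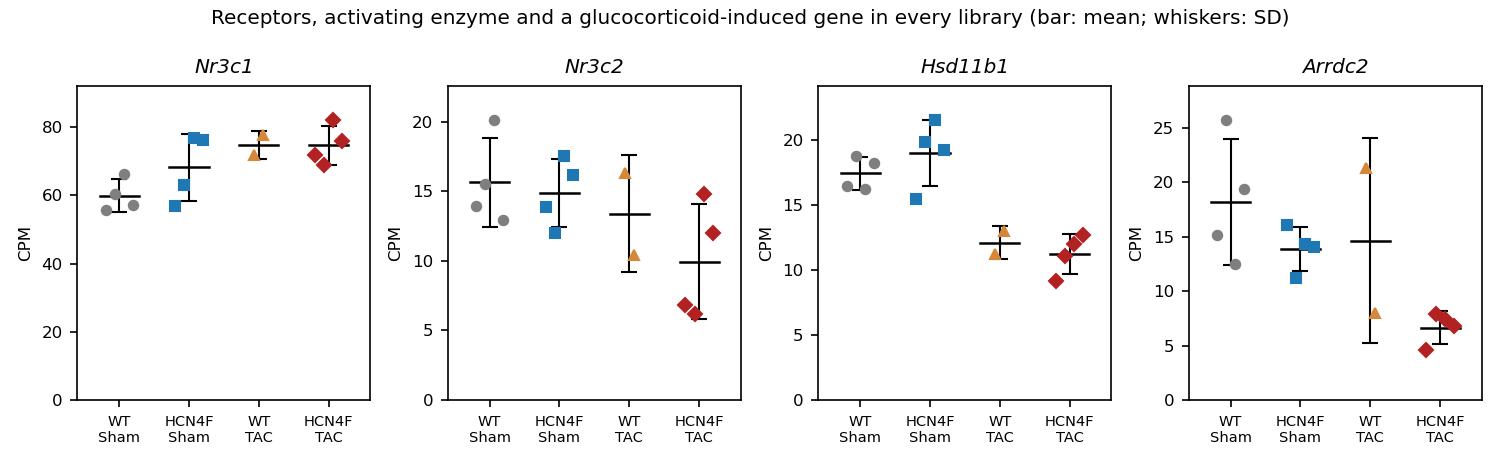
CPM (vertical axis, linear, from 0) of the 2 corticosteroid receptors Nr3c1 and Nr3c2, the activating enzyme Hsd11b1 and the glucocorticoid-induced gene Arrdc2 in every library, by group. Points are libraries, bars are means and whiskers are SD; for Hsd11b1 all 6 TAC libraries, at or below 13.0 CPM, lie under all 8 Sham libraries, at or above 15.5 CPM.

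Of 29 other glucocorticoid-induced genes tested, 1 rose with TAC in WT, 2 rose and 2 fell with TAC in HCN4F, 1 was higher in HCN4F after Sham and 0 passed for genotype in TAC. Their median log2 differences were 0.15, -0.17, 0.13 and -0.20 in that order, against medians over all tested genes of -0.02, -0.01, 0.00 and 0.00. Only Arrdc2, an arrestin-domain gene, also met the fold minimum. It fell with TAC in HCN4F by 1.06 on the log2 scale (SE 0.30, edgeR adjusted p = 0.0379), from 16.0, 11.2, 14.3 and 14.1 CPM to 4.56, 7.87, 7.45 and 6.75 CPM, and the groups did not overlap, as for 15.1% of all tested genes. Over 15 alternatives its adjusted p was below 0.05 in 7, counted without the fold minimum, and the log2 difference ran from -1.15 to -0.92. In WT it was at 12.5 to 25.8 CPM after Sham and at 21.3 and 7.99 CPM after TAC. Anxa1, an anti-inflammatory phospholipid-binding protein, rose in HCN4F by 0.54 (edgeR adjusted p = 0.00751), and Tgm2, a transglutaminase, rose by 0.49 (edgeR adjusted p = 0.0137). Cdkn1c, which encodes the Cdk inhibitor p57, fell there by 0.59 on the log2 scale (edgeR adjusted p = 0.00822). In that comparison 3 of 6 fibroblast markers rose, and of 8 ventricular and general cardiomyocyte markers 1 rose and 4 fell. These passed the same looser test, as 13.6% of all tested genes did. The part of these cells in the levels of the named genes was not tested. Txnip, the thioredoxin inhibitor that glucose also induces, rose with TAC in WT by 0.68 (edgeR adjusted p = 0.0298) and was higher in HCN4F-Sham than WT-Sham by 0.73 (edgeR adjusted p = 0.0251). It was at -0.32 for TAC in HCN4F (edgeR adjusted p = 0.127) and at -0.26 for genotype in TAC (edgeR adjusted p = 0.526).

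Around the metallothioneins, 3 of 16 tested genes of zinc handling and metal response rose with TAC in WT and 2 in HCN4F, 0 fell, and 0 passed for genotype in either surgery. Slc30a4, a zinc exporter of the ZnT family, rose by 0.44 in WT (edgeR adjusted p = 0.0436) and by 0.39 in HCN4F (edgeR adjusted p = 0.0124). Slc39a6, a zinc importer of the ZIP family, rose by 0.62 in WT (edgeR adjusted p = 0.0303) and by 0.61 in HCN4F (edgeR adjusted p = 0.00339). Slc39a7, which moves zinc out of the endoplasmic reticulum, rose by 0.47 in WT (edgeR adjusted p = 0.0269). Mtf1, the metal-sensing factor of the metallothionein promoters, differed by -0.10 to 0.14 and Slc30a1, a zinc exporter that MTF1 controls, by 0.00 to 0.18, with no adjusted p below 0.05 for either.

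Around Cdkn1a, 1 of 18 tested p53 target and Cdk inhibitor genes rose with TAC in WT, 3 rose and 2 fell in HCN4F, 1 was higher in HCN4F after Sham and 0 passed for genotype in TAC. Plk2, a polo-like kinase, had a mean level of 22.3 CPM ± 3.34 (SD, n = 4) after Sham in WT and of 42.2 CPM ± 7.69 (n = 4) after Sham in HCN4F, a log2 difference of 0.92 (SE 0.18, edgeR adjusted p = 0.0411). Btg2, an antiproliferative gene, rose with TAC in WT by 0.91 (edgeR adjusted p = 0.0348). In HCN4F, Phlda3 rose by 0.57, Zmat3 by 0.40 and Aen by 0.36, with edgeR adjusted p of 0.00971, 0.0177 and 0.00889. Cdkn1b, which encodes the Cdk inhibitor p27, fell there by 0.30 on the log2 scale (edgeR adjusted p = 0.0208), and Cdkn1c stands in this list as well.

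Of 8 tested genes of the Sgk family and its partners, 2 rose with TAC in WT, 1 fell in HCN4F and 0 passed for genotype. Pdpk1, the kinase that activates Sgk1, rose by 0.74 (edgeR adjusted p = 0.0112) and Mtor by 0.34 (edgeR adjusted p = 0.0338) in WT, while Nedd4l, the ubiquitin ligase that Sgk1 phosphorylates, fell by 0.31 on the log2 scale in HCN4F (edgeR adjusted p = 0.0302). Of the 3 relatives of Tsc22d3, Tsc22d2 rose with TAC in WT by 0.52 (edgeR adjusted p = 0.0134) and 0 passed elsewhere. Among 8 tested acute phase and lipocalin-related genes 0 passed in any of the 4 comparisons. Serpina3n, an acute phase serine protease inhibitor, had the largest value of these, with HCN4F against WT at 1.06 in Sham (SE 0.26, adjusted p = 0.0973) and 1.825 in TAC (SE 0.34, adjusted p = 0.0834).

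The pathway genes named above at an adjusted p below 0.05 were read over the alternatives by that p alone. The cell type markers S100a8, S100a9 and Cfd were not among them. For TAC in WT, Pdpk1 passed in 12 of 13 and Tsc22d2 in 11 of 13. The other pathway genes passed there in 5 to 9 of 13. For TAC in HCN4F, pathway genes other than Arrdc2 passed in 9 to 15 of 15, with Nedd4l the lowest. For genotype in Sham, Txnip passed in 10 of 15 and Plk2 in 6 of 15.

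Glucocorticoid levels follow the time of day, so 15 circadian output genes were read beside the members. None passed in the 4 comparisons, and their median log2 differences were 0.20 for TAC in WT, -0.40 for TAC in HCN4F, 0.71 for genotype in Sham and -0.05 for genotype in TAC. In that order 11, 5, 10 and 7 of the 15 were above 0. The list holds genes that peak at opposite times of day, and for genotype in Sham Dbp was at 1.96, Per3 at 1.39 and Tef at 0.77 while Arntl was at -1.31 and Npas2 at -0.85, with adjusted p from 0.241 to 0.420. The others ran from -0.19 for Clock to 0.86 for Hlf, with Nr1d1 at -0.09 and Cry1 at -0.02. The time of day of tissue collection is not given in the sources used here, and its part in the members' levels was not tested.

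The members were then compared across the 14 libraries, each as its log2 CPM minus the mean of its own group, so that differences between groups play no part. Of 28 pairs, 1 passed after adjustment by a permutation test within groups with 100000 permutations. Mt1 and Mt2 had a Pearson r of 0.859 (permutation p = 0.00121, adjusted p = 0.0339) and a Spearman rho of 0.802 (permutation p = 0.0039, adjusted p = 0.109). Without WT-Sham replicate 3 and HCN4F-TAC replicate 1, the 2 libraries farthest from the median deviation of Mt1, r was 0.839. Leaving out 1 library at a time gave r from 0.828 to 0.884. The adjusted p was then 0.0648 to 0.140 in 8 of the 14 cases, those that omitted replicate 2 or 3 of HCN4F-Sham, replicate 1, 2 or 3 of WT-Sham, or replicate 1, 2 or 4 of HCN4F-TAC.

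None of the 6 pairs among the 4 glucocorticoid-induced members passed after adjustment. Fkbp5 and Zbtb16 had an r of 0.765 (permutation p = 0.013, adjusted p = 0.122) and a rho of 0.732 (permutation p = 0.0241, adjusted p = 0.225), and r was 0.668 without the 2 libraries farthest in Fkbp5, the WT-TAC pair. Fkbp5 and Tsc22d3 had an r of 0.752 (permutation p = 0.0674, adjusted p = 0.378) and a rho of 0.714 (permutation p = 0.058, adjusted p = 0.325), and r was 0.519 without the WT-TAC pair. Tsc22d3 and Sgk1 had an r of 0.601 (permutation p = 0.00949, adjusted p = 0.122) and a rho of 0.666 (permutation p = 0.0146, adjusted p = 0.204), with 0.585 without the same pair. Tsc22d3 and Zbtb16 had an r of 0.508 (permutation p = 0.213, adjusted p = 0.643) and a rho of 0.446 (permutation p = 0.238, adjusted p = 0.665), and r was 0.234 without the same pair, so that value rests on it. Zbtb16 and Sgk1 had an r of 0.26 (permutation p = 0.491, adjusted p = 0.696) and a rho of 0.262 (permutation p = 0.476, adjusted p = 0.702), with 0.007 without HCN4F-Sham replicate 2 and HCN4F-TAC replicate 3, so that value rests on them. Fkbp5 and Sgk1 had an r of 0.174 (permutation p = 0.586, adjusted p = 0.699) and a rho of 0.27 (permutation p = 0.452, adjusted p = 0.702), with -0.04 without the WT-TAC pair. Outside these 4, Fkbp5 and Cdkn1a had an r of 0.614 (permutation p = 0.037, adjusted p = 0.259) and a rho of 0.644 (permutation p = 0.0356, adjusted p = 0.249), with 0.665 without the WT-TAC pair.

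**Figure D5:**
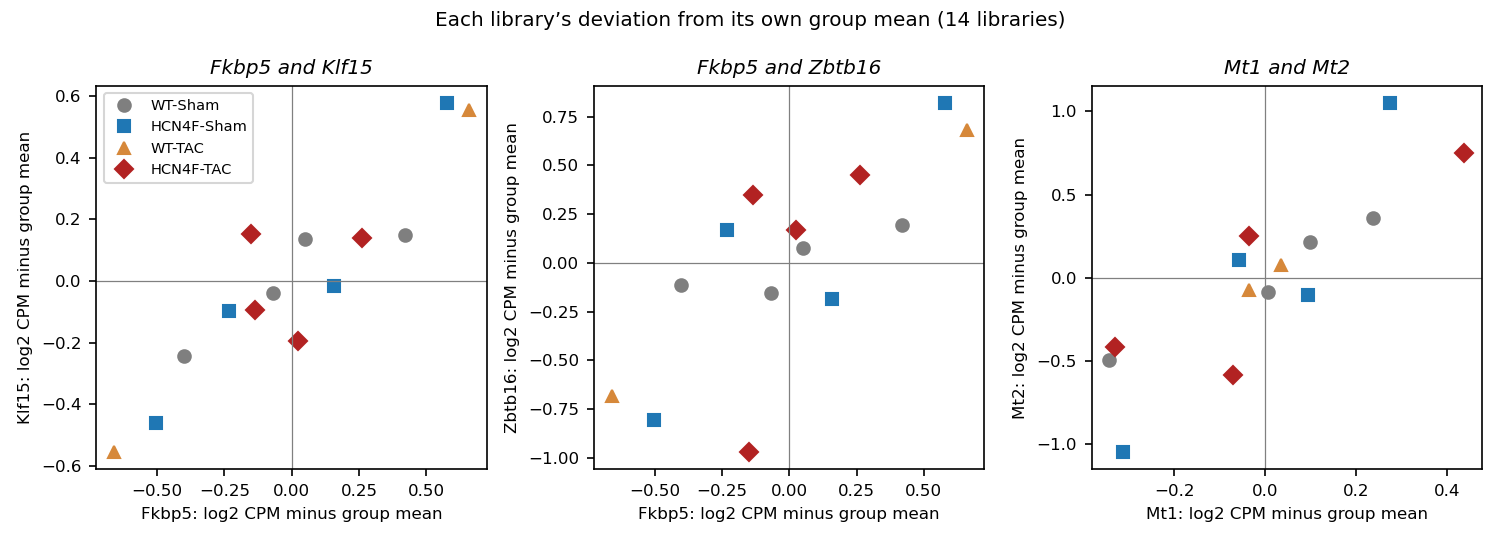
Deviation of each library from its own group mean in log2 CPM, with Fkbp5 against Klf15, Fkbp5 against Zbtb16 and Mt1 against Mt2; each point is 1 of 14 libraries and the symbol gives the group. Pearson r is 0.917, 0.765 and 0.859 in that order, and the 2 WT-TAC libraries lie at equal distances on either side of 0 because their group has only 2 libraries.

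Across all tested genes with a mean of at least 1 CPM, the genes whose deviations were most like those of Fkbp5 were Trim63, a muscle ubiquitin ligase, with an r of 0.928, Klf15, a metabolic transcription factor, with 0.917, and Rasgef1b with 0.907. The first and second of these stand in the list of other glucocorticoid-induced genes. This likeness is a description over 14 libraries that share their group means and scaling, and it has no p. Klf15 was at 79.9 CPM in HCN4F-Sham replicate 1 and 38.9 CPM in replicate 2, where Fkbp5 was at 51.0 and 24.1 CPM, and it was at 83.8 and 38.8 CPM in WT-TAC replicates 2 and 3, where Fkbp5 was at 57.6 and 23.1 CPM.

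The other glucocorticoid-induced genes of the list varied in how far they went with the members. Of the 29 tested genes, 14 had an r above 0.5 with Fkbp5, against 8.91% of the 15236 other tested genes outside the list, each symbol counted once, and the median r was 0.49 against 0.02. With Tsc22d3 it was 18 of 29 against 6.04%, with Zbtb16 13 of 29 against 6.67%, and with Sgk1 6 of 29 against 6.90%. With Mt1 it was 3 of 29 against 5.11%, with Mt2 4 of 29 against 6.80%, with Cdkn1a 6 of 29 against 10.1% and with Lcn2 0 of 29 against 6.52%. Pik3r1 (r of 0.90), Ddit4 (0.87), Sesn1 (0.86), Cebpb (0.85) and Arrdc2 (0.82) were the next after Trim63 and Klf15 for Fkbp5, while Per1 (-0.11), Dusp1 (-0.09) and Cdkn1c (-0.43) went with it little or in the opposite direction. The 2 WT-TAC libraries weighed on these values. Without both, 11 of 29 had an r above 0.5 with Fkbp5 against 13.1% of the other genes, 11 with Tsc22d3 against 7.57% and 9 with Zbtb16 against 9.12%. This count was added after the values were seen.

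Relative to the group means, the share of counts on mitochondrial genes tended to be lower in libraries where some of these members were higher. It was 19.6 to 23.1% in WT-Sham, 17.1 to 21.4% in HCN4F-Sham, 18.4 to 20.0% in WT-TAC and 13.9 to 18.6% in HCN4F-TAC. Over the 14 libraries its deviations on the log2 scale had an r of -0.69 with Cdkn1a, -0.68 with Fkbp5, -0.66 with Zbtb16, -0.39 with Tsc22d3 and -0.17 with Sgk1. It was -0.14 with Lcn2, 0.04 with Mt1 and 0.00 with Mt2. HCN4F-Sham replicate 1 had the widest Cdkn1a deviation, at 1.54, and the lowest mitochondrial share of its group, at 17.1%. The part of the mitochondrial share in the members' levels was not tested.

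For the other members the most like genes were Adamtsl4, Sirt1 and Scaf8 for Tsc22d3 (r of 0.898, 0.882 and 0.881) and Ppfia1, Rbm39 and Hand2 for Zbtb16 (0.916, 0.901 and 0.893). They were Tcim, Sdc2 and Rerg for Sgk1 (0.935, 0.898 and 0.894), Asrgl1, Zfp943 and Bbs5 for Mt1 (0.898, 0.865 and 0.861) and Dynlt3, Coil and Serpinb8 for Mt2 (0.909, 0.896 and 0.894). For Cdkn1a they were Leo1, Ticam1 and AI467606 (0.918, 0.911 and 0.909), and for Lcn2 they were Vdac2, Aph1a and Rnf7 (0.939, 0.877 and 0.841). None of these is in the lists of pathway genes, and each is the highest of many genes searched.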

How the data were processed

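Poly(A) RNA-seq of left ventricle gave 14 libraries, grouped by the labels' genotype and surgery. The unit of the single deposited table is raw counts per gene, made by the authors from reads aligned to GRCm38 per the submitters' processing notes; the counter, its strand setting and the aligner are not given in the sources used here. The study describes 16 samples; 2 further columns match no sample used here and were not used. Counts were fitted with edgeR 4.0.16 (R 4.3.3; TMM, its default filter on low counts, robust quasi-likelihood, means of 4 groups), which left 15292 genes and 10 degrees of freedom, and p-values were adjusted by Benjamini-Hochberg. DESeq2 1.42.0, the study's tool, was an alternative. log2 CPM used a prior count of 2. Depth was 22309914 to 35210939 counts, so that 3 counts equal 0.0859 to 0.137 CPM. The scripts were tested on simulated data. The 8 members, the lists and the rule for named genes (all members, list genes called in a single comparison, 3 most like genes per member) were chosen with earlier results of these data known. The labels name separate samples and do not say how these were taken, and p-values measure the spread between them. Sample titles also carry a number per library, whose meaning is not given. All WT numbers were above all HCN4F numbers, and both WT-TAC numbers were below all WT-Sham numbers. Genotype, and TAC in WT, therefore cannot be told apart from what these numbers track. Positions are from GENCODE release 21 for mouse, in which 99.3% of gene IDs matched, and promoters from RefSeq. Alternatives were another tool, normalization, filter, spread estimate, call rule, replicate block, only the compared groups, and each library left out.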

Additional observations from a re-analysis of the deposited data

Results flagged for a closer look

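Cdkn1a in HCN4F-Sham replicate 1 stood far from the other 3 libraries of its group, at 126 CPM against 25.7 to 42.4 CPM. The gap to the nearest library divided by the group's range was 0.835 on the scale of CPM, just above the 95% critical value of Dixon's test for 4 samples, and 0.686 on the log2 scale, below it. This library's other members were at 51.0 CPM for Fkbp5, 218.1 for Zbtb16 and 2.75 for Lcn2, the highest of the group, at 41.8 for Sgk1, the lowest, and at 64.5 for Tsc22d3, 141.3 for Mt1 and 10.6 for Mt2, within its range. It also had the lowest summed endothelial, mural and erythroid markers of its group, at 667, 593 and 70.9 CPM, and the lowest mitochondrial share, at 17.1%. Chance flags about 1 in 20 groups of this size, and 24 were examined.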

How the results depend on the processing

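The count of called members stayed at 0 under all alternatives except 3. It was 1, Cdkn1a, without HCN4F-Sham replicate 1 for TAC in HCN4F (0 to 1 over libraries left out) and for genotype in Sham (0 to 1), and 1, Mt2, with DESeq2 for genotype over both surgeries. Leaving out 1 library at a time gave 0 in the other 5 comparisons. Deviations of same-numbered libraries correlated from -0.177 to 0.224. Differently numbered libraries were not read beside them, so these values cannot tell whether the replicate numbers pair the samples. With the replicate block 0 members were called in each comparison, and Mt2 for genotype over both surgeries was 0.99 (adjusted p = 0.234); the adjusted p of that value ran from 0.0489 to 0.417 over all alternatives. The number of correlated pairs was 1 with a prior count of 0.5 and with DESeq2 size factors, and 0 to 2 without single libraries. Of 725 log2 differences of single members under alternatives, 689 kept direction and side of the threshold and 33 changed sign, each from a value that was not called. With the block these were Zbtb16 at 0.0466 and Mt2 at 0.059 for TAC in WT and Fkbp5 at 0.0652 for genotype in TAC, and with no filter on low counts Mt2 at 0.0052 for TAC in WT. Without single libraries, TAC in WT ran from -0.16 to 0.11 for Mt2, -0.87 to 0.49 for Zbtb16, -0.27 to 0.19 for Sgk1, -0.98 to -0.04 for Tsc22d3, -0.11 to 0.47 for Cdkn1a and -1.12 to 0.20 for Fkbp5. TAC in HCN4F ran from -0.38 to 0.16 for Zbtb16, -0.18 to 0.28 for Lcn2, -0.14 to 0.0055 for Tsc22d3 and -0.0201 to 0.30 for Sgk1. Genotype in Sham ran from -0.26 to 0.0069 for Sgk1, -0.0789 to 0.12 for Mt1 and -0.54 to 0.0024 for Zbtb16. Genotype in TAC ran from -0.55 to 0.77 for Fkbp5, -0.15 to 0.30 for Sgk1, -0.54 to 0.40 for Tsc22d3 and -0.87 to 0.49 for Zbtb16. Without a WT-TAC library the lone WT-TAC sample is assumed to vary like the other groups. For the 25 pathway gene results, 269 of 355 alternatives kept an adjusted p below 0.05, with no fold minimum, and 0 changed sign. These results were added after seeing the data. Over all genes the number called was 108 for TAC in WT (7 to 694 over the alternatives), 420 in HCN4F (260 to 2081), 317 over both genotypes (158 to 3278), 32 for genotype in Sham (11 to 92), 11 in TAC (3 to 158), 36 over both surgeries (11 to 192) and 0 for the interaction (0 to 78); DESeq2 gave 112, 404, 303, 60, 84, 66 and 37 in that order. Every member was above 3 counts in every library, and Lcn2, the lowest, had 32 to 73 counts per library; the cause of the changed values was not tested.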
